A study of Mus musculus with 15 samples.

Results

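Glandular epithelium (GE), the cells that form the glands of the uterus, was compared between 3 libraries from E-OEX animals and 3 libraries from wild-type animals, all mouse and all taken at day 4. The labels give the genotype of the E-OEX samples as overexpression of Notch1, a cell surface receptor gene, and that of the controls as wild type. What the letters E-OEX stand for, the promoter or Cre that drives the overexpression, and the strain, age and reproductive state of the animals are not given in the sources used here, and nothing says whether the replicates came from separate animals, so the p-values measure only the spread between these samples. A gene was included when its identifier was listed in the GE tables of both genotypes, which held for 2933 of the 28269 genes listed anywhere in the series. Each table lists genes whose GE and luminal epithelium (LE) means differ by 2-fold or more in that genotype, so every gene described here differs between the epithelia in both genotypes. Notch1 is in the lists of neither genotype, and the label could not be checked on it.

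Uterine glands secrete the factors that the mouse uterus needs to receive an embryo. The best known is leukemia inhibitory factor (Lif), a cytokine that signals through a receptor shared with other cytokines, gp130, encoded by Il6st. A Notch receptor bound by a ligand on a neighbouring cell is cut, and its freed inner domain joins the DNA-binding protein RBPJ to turn on target genes, among them the repressors of the Hes and Hey families.

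Values are rescaled reads: the reads recovered from the deposited tables, scaled together over the 6 libraries by the TMM method. A change is the difference of E-OEX and wild-type means of log2(rescaled reads + 1), given with its standard error (SE), and it understates the change of genes with few reads. A gene was called when limma's adjusted p was under 0.05. Of 2851 genes tested, 23.5% were called, with 9.72% higher and 13.8% lower in E-OEX, and the 6 libraries separated by genotype without overlap for 40.5% of genes (18.6% higher, 21.9% lower). The E-OEX and wild-type tables appear to have been scaled separately, though how is not given. On that deposited scale the median change of all genes was 0.50 against 0.05 here, and 71.6% of 789 calls were higher against 41.3%. Counts on that scale carry this shift of all genes, and they are given for some of the lists below. Which scale lies nearer the true levels was not tested. Reads in the shared genes ranged from 1686696 to 1942029 in wild-type and from 2060418 to 2429426 in E-OEX libraries.

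The E-OEX replicate 1 library stood apart from the other E-OEX libraries. It held 64 genes more than 4-fold above and 45 genes more than 4-fold below both others of its group, whereas each of the other 5 libraries held 2 to 9 genes above and 6 to 21 below. It lay at 30.7 on the second principal component, which carried 16.3% of the variance, with the other E-OEX libraries at -19.4 and -19.9. Its luminal marker sum was 8825 rescaled reads, against 2277 and 1752 in the other E-OEX libraries. The lactoferrin gene Ltf alone gave 6505 of these reads, against 971 and 820. Other markers in the sum went both ways. Krt13 was highest in this library (87.0, against 32.6 and 13.2). Calb1 (145, against 594 and 356) and Lpar3 (219, against 396 and 297) were lowest in it. Without E-OEX replicate 1, 297 genes were higher and 431 lower, against 277 and 393 with it.

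**Figure D1:**
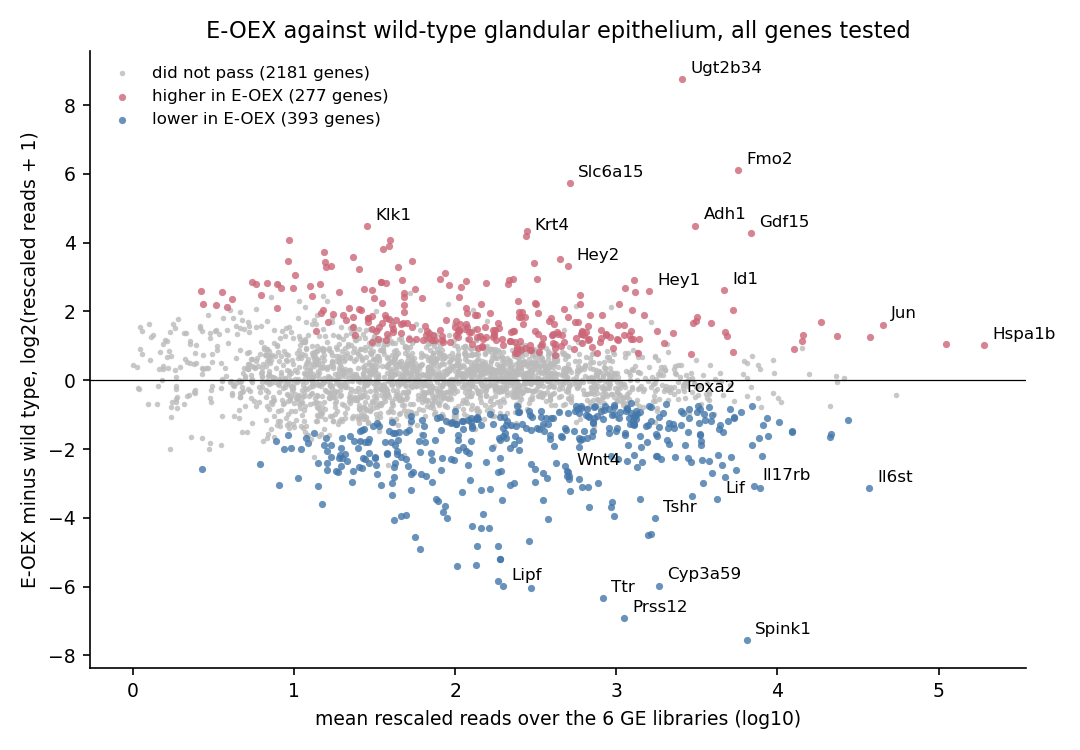
Change in E-OEX against wild-type glandular epithelium (difference of mean log2(rescaled reads + 1), vertical) by mean level (log10, horizontal) for each of the 2851 genes tested, 3 libraries a group. Red points are the 277 genes called higher, blue points the 393 called lower and grey points those that did not pass. Ugt2b34 lies highest at 8.76 and Spink1 lowest at -7.55.

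Gland secretions were lower in E-OEX glands. Of 11 tested members of the list, 6 fell, 2 rose and 3 did not pass, with a median change of -1.48 against 0.05 over all genes tested. The shares were 54.5% lower and 18.2% higher, against 13.8% and 9.72% of all genes. The counts were the same without E-OEX replicate 1, and 2 rose and 5 fell on the deposited scale. Spink1, a trypsin inhibitor, fell from 13188, 9511 and 15608 rescaled reads in the wild-type libraries to 8.60, 244 and 126 in the E-OEX libraries, a change of -7.55 (SE 0.95, adjusted p = 0.000492). Its lowest value was in E-OEX replicate 1, and without that library the change was -6.15, or -8.48 without E-OEX replicate 2. Ttr, the carrier of thyroid hormone and retinol-binding protein, stood at 1818, 1652 and 1413 in wild-type and at 20.1, 37.7 and 8.82 in E-OEX glands. Its change was -6.34 (SE 0.45, adjusted p = 3.11e-05), and the groups were far from overlapping. Cxcl15, a chemokine named as a gland marker, went from 5935, 4657 and 5297 to 1510, 1689 and 1142, a change of -1.88 (SE 0.24, adjusted p = 0.000482). In 1 fit over all 4 groups of GE and LE libraries Cxcl15 lost the call, while Spink1 and Ttr did not.

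Further down the list of secretions the calls were less firm. Calca, which encodes calcitonin, read 2218, 1086 and 1783 in wild-type and 12.4, 495 and 179 in E-OEX glands, with no overlap. Its change was -3.94 (SE 1.04, adjusted p = 0.0226), which became -2.44 without E-OEX replicate 1 and -5.05 without E-OEX replicate 2. The call ended without any 1 wild-type library (adjusted p = 0.106, 0.0519 and 0.0598 without replicates 1, 2 and 3) and with DESeq2 (adjusted p = 0.053). Sult1d1, a sulfotransferase, read 18814, 15783 and 18461 against 3179, 10227 and 7707, a change of -1.48 (SE 0.39, adjusted p = 0.0217), and it too missed the threshold without each wild-type library (0.112, 0.0537 and 0.0643) and on the deposited scale (0.092). The members of the list that rose were Wfdc2 and Prap1. Wfdc2, a whey acidic protein family member, went from 1553, 1250 and 1307 to 6172, 5380 and 3421 (change 1.83, SE 0.27, adjusted p = 0.00117). Prap1 had at most 1 read in each wild-type library, and its E-OEX mean lay at least 3.25-fold higher (adjusted p = 0.00777). Both had more reads in LE, which was rescaled separately. Prap1 read 14.3, 8.16 and 10.3 in E-OEX glands, against 1252, 701 and 3466 in E-OEX LE. In wild-type LE it read 111, 79.98 and 67.7, a change of 4.09 in LE. Wfdc2 read 22533 to 24752 in wild-type LE. The part of luminal cells in these rises was not tested. Igf1, Wfdc3 and Slc39a2 overlapped between the groups, with changes of -0.52, -0.30 and 0.29.

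Lif fell with the other secretions, and so did the gene of the receptor through which it signals. Lif (chr11:4257557-4272514, + strand, GRCm38) stood at 7942, 5408 and 9912 rescaled reads in wild-type glands and at 495, 1109 and 584 in E-OEX glands. The change was -3.46 (SE 0.34, adjusted p = 0.000144), and the highest E-OEX value lay below the lowest wild-type value. Il6st (chr13:112464070-112510086, + strand, GRCm38), which encodes gp130, was among the 10 genes with the highest mean rescaled reads over the 6 libraries. It read 61997, 60125 and 78382 in wild-type and 6987, 8176 and 7429 in E-OEX glands, a change of -3.14 (SE 0.23, adjusted p = 3.14e-05). Of the 4 tested members of the LIF and gp130 axis Lif and Il6st were the 2 called. The list holds 23 genes, and of those not tested 7 were listed in wild type only, 3 in E-OEX only and 9 in neither. Il11ra1, a receptor chain that pairs with gp130, changed by -0.55 (adjusted p = 0.108), and Ctf2, a cytokine of the same family, by 1.11 (adjusted p = 0.241).

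Of 22 gland transcription factor and stem cell genes only 4 were listed in both genotypes, and none of these passed. Of the rest, which were not tested, 8 were listed in wild type only, 3 in E-OEX only and 7 in neither. Foxa2, a forkhead factor required for gland formation, read 2767, 2975 and 2790 in wild-type and 2158, 1722 and 2034 in E-OEX glands. The libraries did not overlap, but the change of -0.53 (SE 0.21) did not pass (adjusted p = 0.0982). Sox9 changed by -0.50 (adjusted p = 0.211), with E-OEX replicate 1 at 3573 inside the wild-type range of 3345 to 4030, and it passed without that library (-0.75, adjusted p = 0.0299). Foxa3 and Lef1 changed by 0.54 and 0.11, with overlapping libraries.

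**Figure D2:**
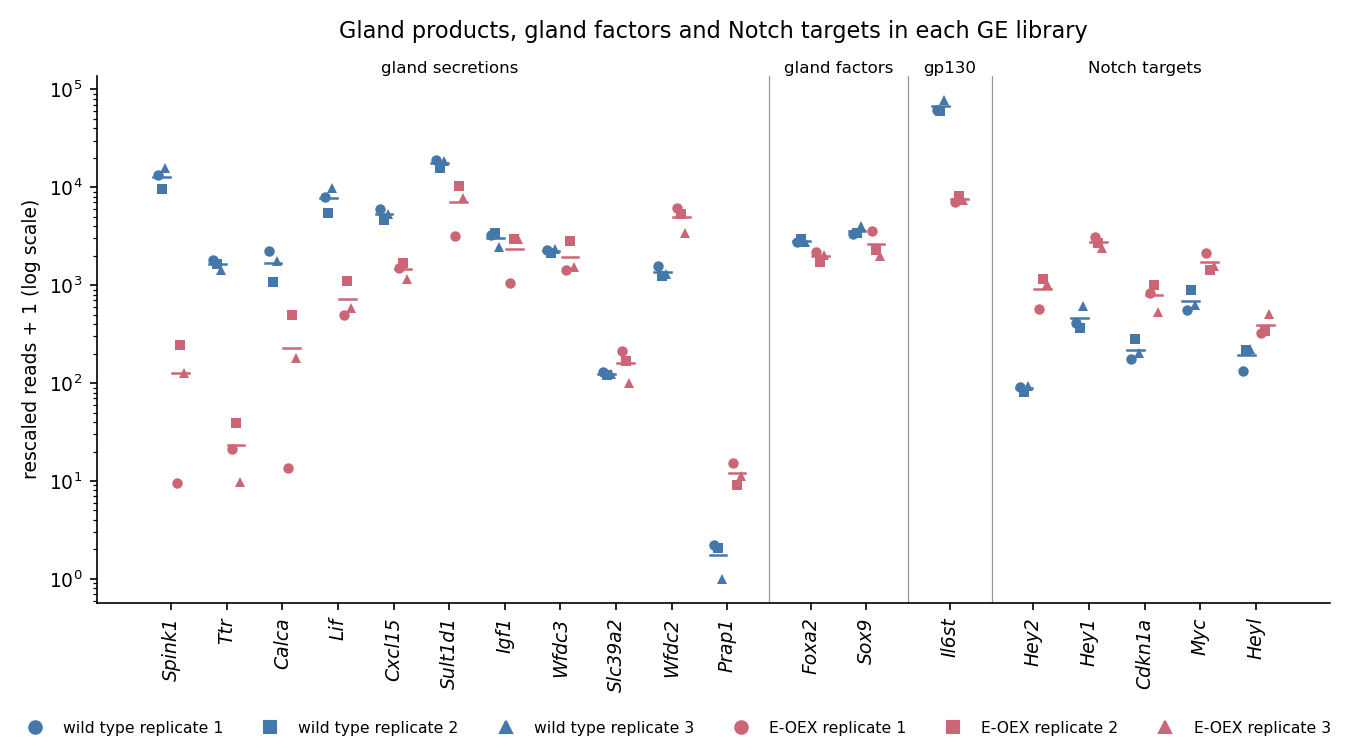
Rescaled reads + 1 (log scale) of each tested gland secretion, of the gland factors Foxa2 and Sox9, of Il6st and of 5 Notch targets in each of the 3 wild-type (blue) and 3 E-OEX (red) gland libraries, with bars at the group means. Spink1, Ttr, Calca, Lif, Cxcl15, Sult1d1 and Il6st lie lower in all 3 E-OEX libraries, Foxa2 shifts little, and the 5 Notch targets lie higher in all 3.

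Most tested Notch target genes were higher in E-OEX glands, while receptors and ligands on the shared list did not pass. Of 20 targets in the list only 6 were listed in both genotypes. Of the rest, 5 were listed in E-OEX only, Hes1 among them, 1 in wild type only and 8 in neither. Of the 6 tested targets 5 were called higher and none lower, with a median change of 1.58, against 9.72% of all genes called higher. Hey1 (chr3:8663359-8667256, - strand, GRCm38) rose from 408, 364 and 613 to 3112, 2688 and 2411 rescaled reads, a change of 2.59 (SE 0.26, adjusted p = 0.000144). Hey2 (chr10:30832359-30842801, - strand, GRCm38) rose from 90.7, 80.8 and 92.0 to 570, 1148 and 1037, a change of 3.31 (SE 0.31, adjusted p = 0.000121). Both genes encode repressors, and each E-OEX library exceeded each wild-type library by a wide margin. The third member of the family, Heyl (chr4:123233556-123249875, + strand, GRCm38), went from 131, 217 and 224 to 320, 342 and 508. Its change of 1.04 (SE 0.31, adjusted p = 0.0379) was no longer called without any 1 library other than E-OEX replicate 1, with adjusted p-values from 0.0585 to 0.125.

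The other targets called higher were Cdkn1a, an inhibitor of cyclin-dependent kinases, and Myc, a growth regulator. Cdkn1a read 175, 278 and 200 in wild-type and 832, 1008 and 525 in E-OEX glands (change 1.83, SE 0.31, adjusted p = 0.00273). Myc read 553, 882 and 625 against 2152, 1420 and 1585 (change 1.33, SE 0.27, adjusted p = 0.00621). In 1 fit over all 4 groups of GE and LE libraries Cdkn1a, Myc and Heyl lost the call, while Hey1 and Hey2 did not. Sox9 was the target that did not pass with all libraries (change -0.50), and it was called lower without E-OEX replicate 1.

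The RBPJ core motif was searched as TGGGAA on both strands of the 250 bases before the start of each gene in RefSeq's promoter table (GRCm38.p6). Hey2 is shown because it had the largest change among the Notch targets and Hey1 and Heyl have no entry in the table. It held 1 match, on the opposite strand, starting 207 bases before the gene's start. The sequence covers chr10:30842784-30843033 on the - strand, with the match in capitals.
Hey2: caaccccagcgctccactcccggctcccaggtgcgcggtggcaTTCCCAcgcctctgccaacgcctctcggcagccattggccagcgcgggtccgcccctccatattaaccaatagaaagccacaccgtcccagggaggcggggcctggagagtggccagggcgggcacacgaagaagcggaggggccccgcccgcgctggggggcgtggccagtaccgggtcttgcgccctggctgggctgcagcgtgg
Such a match was common. It occurred in 21.5% of 27025 promoters in the table, in 23.5% of those of 1842 tested genes with an entry, in 25.1% of those of 187 genes called higher and in 23.7% of those of 262 genes called lower.

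Among receptors and ligands, the 4 tested members all had changes above 0 and none was called, while 3 were called higher on the deposited scale and 2 without E-OEX replicate 1. Notch4, a receptor of endothelial cells, read 108, 107 and 116 in wild-type and 144, 182 and 295 in E-OEX libraries (change 0.84, adjusted p = 0.0879). Dll4, a ligand known from the same cells, changed by 0.88 (adjusted p = 0.0781), and without E-OEX replicate 1 both passed, at 0.0241 and 0.0183. The endothelial marker sum ranged from 6935 to 11667 in wild-type and from 6845 to 14380 rescaled reads in E-OEX libraries, and its part in these values was not tested. Dll1 and Cntn1 changed by 0.45 and 1.08. Of 7 genes that process or modulate Notch, 2 fell (28.6%, against 13.8% of all genes). Numbl, related to the Notch antagonist Numb, went from 1407, 1408 and 1588 to 486, 653 and 534 (change -1.40, SE 0.22, adjusted p = 0.00205). Psen2, a catalytic subunit of the protease that cuts Notch, changed by -0.93 (SE 0.23, adjusted p = 0.0173), a call that ended without wild-type replicates 1 and 3 or E-OEX replicate 3 (0.104, 0.0805 and 0.0526) and on the deposited scale (0.15). The sugar transferases Lfng and Mfng and the genes Dtx1, Dtx3 and Egfl7 lay between -0.32 and 0.65 and did not pass.

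Genes of drug, steroid and retinoid metabolism held the largest rises of the comparison, Ugt2b34 and Fmo2, and some of its largest falls. Of 49 tested enzymes of this list 6 rose and 14 fell, against 9.72% and 13.8% of all genes. The counts were the same, 6 and 14, without E-OEX replicate 1, while on the deposited scale 11 rose and 10 fell. Ugt2b34 (chr5:86889767-86906937, - strand, GRCm38), a glucuronosyltransferase, went from 4.84, 22.9 and 10.6 rescaled reads to 4649, 5828 and 4895, a change of 8.76 (SE 0.45, adjusted p = 4.16e-06). Fmo2 (chr1:162874317-162898726, - strand, GRCm38), a flavin-containing monooxygenase, went from 168, 218 and 108 to 8260, 13580 and 11852, a change of 6.11 (SE 0.31, adjusted p = 4.16e-06). Adh1, an alcohol dehydrogenase that also oxidises retinol, rose from 368, 315 and 133 to 3938, 8423 and 5432 (change 4.50, SE 0.41, adjusted p = 0.000115). In each of these genes the groups were far apart, and E-OEX replicate 1 was the lowest of its group.

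Cytochromes P450 of the Cyp3a family, which oxidise steroids and drugs, went the other way. Cyp3a59 fell from 3181, 3267 and 4324 rescaled reads to 17.2, 113 and 86.7 (change -5.97, SE 0.58, adjusted p = 0.000137). Cyp3a25 fell from 522, 494 and 720 to 3.82, 10.2 and 11 (change -6.05, SE 0.41, adjusted p = 3.11e-05). Cyp3a16 changed by -4.81 (SE 0.63, adjusted p = 0.000611). Without E-OEX replicate 1, the lowest of its group in these genes, the changes of Cyp3a59 and Cyp3a16 were -5.15 and -3.98. These genes are near copies of each other, as Ugt2b34 is of other Ugt2b genes, and how reads that match several copies were counted is not given in the sources used here, so the split among them is uncertain. Akr1d1, a steroid reductase, fell from 405, 262 and 446 to 3.82, 18.4 and 9.55 (change -5.19, SE 0.50, adjusted p = 0.000137). Of 11 tested genes of sterol and fatty acid synthesis 3 fell (27.3%, against 13.8% of all genes) and none rose, or 1 each way on the deposited scale. The clearest was Acsl4, which activates arachidonic acid, from 3391, 2964 and 3182 to 1004, 949 and 912 (change -1.73, SE 0.21, adjusted p = 0.000361).

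Secreted proteases and their inhibitors were split. Of 22 tested members 3 rose and 3 fell (13.6% each way, against 9.72% and 13.8% of all genes), and 6 rose and 4 fell without E-OEX replicate 1. Prss12 (chr3:123446913-123506597, + strand, GRCm38), the serine protease neurotrypsin, had the second largest fall of all genes with a symbol, after Spink1. It read 1976, 2104 and 2606 in wild-type and 13.4, 25.5 and 15.4 in E-OEX glands, a change of -6.91 (SE 0.30, adjusted p = 3.05e-06). Serpina3n, an inhibitor of serine proteases, fell from 572, 887 and 482 to 42.1, 147 and 104 (change -2.84, SE 0.45, adjusted p = 0.00185). Klk1, a kallikrein that releases kinins, had 2 reads or fewer in each wild-type library and 118, 23.5 and 26.4 rescaled reads in E-OEX glands, at least 16.6-fold higher (adjusted p = 0.00217), or at least 7.43-fold without E-OEX replicate 1. Wfdc8 rose from 2.42, 4.37 and 2.11 to 20.1, 28.6 and 29.4 (adjusted p = 0.00261). The aminopeptidase Enpep led the 34 cathepsins and metalloproteases tested by its adjusted p among those that fell, from 981, 851 and 1190 to 336, 310 and 286 (change -1.68, adjusted p = 0.000988). In that list 3 rose and 3 fell in all, or 8.82% each way (7 and 2 on the deposited scale). Lipf, a lipase, fell from 339, 397 and 426 to 1.91, 18.4 and 2.94 (change -6.00, adjusted p = 0.000182), and without E-OEX replicate 2 the change was -6.84.

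Among enzymes that build glycans more were called lower than higher. Of 41 tested mucin and glycosyltransferase genes 9 fell and 2 rose (22.0% and 4.88%, against 13.8% and 9.72% of all genes). Without E-OEX replicate 1, 13 fell and 3 rose, and on the deposited scale 8 fell and 7 rose. The median change of the list was 0.25, so most members did not share the direction of the calls. Galnt17, of the family that starts O-linked chains, fell from 1453, 1615 and 2064 to 291, 102 and 104 (change -3.53, SE 0.40, adjusted p = 0.000257). Galntl6, of the same family, fell by 3.0 on the log2 scale (adjusted p = 0.00111). Hs3st6, a heparan sulfate sulfotransferase, fell from 803, 767 and 1006 to 149, 135 and 94.8 (change -2.77, SE 0.27, adjusted p = 0.000137). The sialyltransferase St6galnac3 stood at 595, 614 and 613 against 56.4, 124 and 116 (change -2.69, adjusted p = 0.000445). Man1a, a mannosidase that trims N-linked chains, fell from 5989, 5456 and 5575 to 811, 1535 and 1200 (change -2.31, adjusted p = 0.000289).

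Carriers, channels and pumps were called about as often as genes in general. Of 73 solute carriers 8 rose and 7 fell (8 and 10 without E-OEX replicate 1, 16 and 5 on the deposited scale), and of 61 channels, pumps and aquaporins 6 rose and 9 fell (17 and 8 on that scale). Slc6a15, a carrier of neutral amino acids, went from 15.7, 37.1 and 8.46 rescaled reads to 666, 1283 and 1068, a change of 5.74 (SE 0.49, adjusted p = 8.62e-05). Slc22a3, a carrier of organic cations, rose from 6.05, 4.37 and 9.52 to 71.7, 34.7 and 36.0 (change 2.64, adjusted p = 0.00356). Slc44a3, of the choline carrier family, fell from 4959, 5073 and 5386 to 1141, 2113 and 1383 (change -1.78, adjusted p = 0.00123). The citrate carrier Slc13a5 was at 2 reads or fewer in each E-OEX library and at least 5.50-fold lower there (adjusted p = 0.00496).

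Among pumps and channels, the lipid flippase Atp10b rose from 65.3, 85.1 and 51.8 to 1284, 580 and 602 (change 3.52, SE 0.36, adjusted p = 0.000159). The water channel Aqp4 had no read in any wild-type library and 6.69, 31.6 and 17.6 rescaled reads in E-OEX glands, at least 5.55-fold higher (adjusted p = 0.00217). The calcium-activated potassium channel gene Kcnma1 fell from 1029, 963 and 1074 to 91.8, 178 and 163 (change -2.87, SE 0.29, adjusted p = 0.000159). Atp6v1c2, a subunit of the proton pump, fell from 133, 127 and 223 to 14.3, 9.18 and 11 (change -3.67, adjusted p = 0.000152).

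The keratin genes Krt4, Krt13 and Krt19 rose, and Krt23 fell. Krt4 went from 21.8, 38.2 and 22.2 to 659, 587 and 317 rescaled reads (change 4.18, SE 0.37, adjusted p = 0.000105). Krt13, its usual partner in stratified epithelium and also a luminal marker here, went from 1.21, 4.37 and 1.06 to 87.0, 32.6 and 13.2 (change 3.58, SE 0.71, adjusted p = 0.00561), with a change of 2.91 without E-OEX replicate 1 and 4.20 without E-OEX replicate 3. Krt19, a keratin of simple epithelium, rose from 2482, 2173 and 1583 to 9606, 9367 and 6656 (change 2.04, SE 0.26, adjusted p = 0.0005). Krt23 fell from 8571, 3800 and 6668 to 1054, 1457 and 1076 (change -2.35, SE 0.31, adjusted p = 0.000724). In all of these genes the groups were separate. Among the 41 keratins, claudins, cadherins and junction proteins tested 4 rose and 3 fell (9.76% and 7.32%, against 9.72% and 13.8% of all genes). The counts were 5 and 5 without E-OEX replicate 1 and 9 and 2 on the deposited scale. Of 60 matrix genes 2 rose (3.33%) and none fell, or 8 and none on that scale. Lamb3, a laminin chain of epithelial basement membrane, rose from 10.9, 12 and 16.9 to 335, 72.4 and 74.2, with E-OEX replicate 1 highest (change 3.13, adjusted p = 0.00407), and without that library the change was 2.40 (adjusted p = 0.00203).

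Growth factor pathways held large changes in single members. Gdf15 (chr8:70629393-70632456, - strand, GRCm38), a distant member of the TGF-beta family, rose from 813, 697 and 460 rescaled reads to 16349, 14983 and 7672 (change 4.27, SE 0.34, adjusted p = 5.41e-05). Id1, a target of BMP signalling, rose from 1346, 1547 and 995 to 7156, 10142 and 6647 (change 2.62, SE 0.26, adjusted p = 0.000144). Chrd, which encodes the BMP antagonist chordin, fell from 2553, 2211 and 2986 to 163, 337 and 228 (change -3.46, SE 0.30, adjusted p = 8.62e-05). Bmp2, a BMP ligand, rose from 58.1, 52.4 and 43.4 to 155, 211 and 123 (change 1.62, adjusted p = 0.00533), and Chrdl2, a chordin-like protein, from 20.6, 19.6 and 15.9 to 145, 108 and 65.4 (change 2.38, adjusted p = 0.00215). In all, 6 of 25 tested TGF-beta and BMP genes rose and 2 fell (24% and 8%, against 9.72% and 13.8% of all genes). Without E-OEX replicate 1, 5 rose and 3 fell, and on the deposited scale 9 rose and 1 fell.

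The Wnt list was even, with 3 of 14 tested members higher and 3 lower (3 and 1 on the deposited scale). That was 21.4% each way, against 9.72% higher and 13.8% lower of all genes. Wnt4 (chr4:137277489-137299726, + strand, GRCm38), a ligand of uterine epithelium and stroma, fell from 635, 866 and 1080 to 239, 113 and 85.2 (change -2.66, SE 0.39, adjusted p = 0.0012). Porcn, the enzyme that attaches the lipid Wnt proteins need for secretion, rose from 847, 674 and 740 to 1471, 1851 and 1835 (change 1.19, adjusted p = 0.00462). The receptor gene Fzd7 rose from 578, 714 and 585 to 1583, 1468 and 1216 (change 1.18, adjusted p = 0.005). Of 14 EGF and FGF family genes 2 rose and 2 fell, or 14.3% each way (4 and none on the deposited scale). They were led by Dusp8, a phosphatase of stress kinases, from 521, 619 and 475 to 2282, 1541 and 1242 (change 1.61, adjusted p = 0.00273).

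Receptors and signalling enzymes held further large falls. Il17rb, a receptor chain for interleukins 17B and 25, fell from 15192, 11209 and 12032 to 1043, 2199 and 1461 (change -3.08, SE 0.29, adjusted p = 0.000136). Tshr, the thyrotropin receptor gene, fell from 3215, 3026 and 3540 to 159, 267 and 191 (change -4.01, SE 0.25, adjusted p = 2.36e-05). Pde1c, a phosphodiesterase, fell from 201, 199 and 205 to 10.5, 1.02 and 3.67 (change -5.41, SE 0.57, adjusted p = 0.00019; -6.04 without E-OEX replicate 1 and -4.79 without E-OEX replicate 2), and the muscarinic receptor gene Chrm3 from 541, 439 and 639 to 107, 89.8 and 73.5 (change -2.57, adjusted p = 0.000195). The adhesion receptor gene Adgrg7 rose from 81.0, 38.2 and 43.4 to 391, 419 and 403 (change 2.96, adjusted p = 0.000247). Il20, a cytokine, fell from 55.6, 98.2 and 109 to 7.65, 5.10 and 2.20 (change -3.95, adjusted p = 0.00047). Over the lists, 5 of 61 G protein signalling genes rose and 8 fell (8.20% and 13.1%), near the 9.72% and 13.8% of all genes. The counts became 9 and 9 without E-OEX replicate 1 and 14 and 6 on the deposited scale. Of 41 chemokine, interleukin and TNF family genes 3 rose and 6 fell (7.32% and 14.6%), or 10 and 6 on that scale.

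Genes of the prostaglandin and histamine pathways, both tied to implantation, also changed. Pla2g4a, the phospholipase that releases arachidonic acid, fell from 3454, 2719 and 2898 to 1207, 1258 and 1015 (change -1.38, SE 0.22, adjusted p = 0.00197). Ptgs1, a cyclooxygenase, rose from 400, 289 and 298 to 1131, 822 and 722 (change 1.42, SE 0.27, adjusted p = 0.00432). Hdc, which makes histamine, fell from 10753, 6573 and 7709 to 911, 3352 and 1674 (change -2.24, SE 0.42, adjusted p = 0.00462). Of 14 tested prostaglandin genes 2 rose and 4 fell (14.3% and 28.6%). Of 16 steroid receptor and hormone response genes 2 rose and 3 fell (12.5% and 18.8%), near the 9.72% and 13.8% of all genes. With the upward shift of the deposited scale these counts were 3 and 1, and 6 and 3.

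Developmental transcription factors were called higher in 10 of 52 cases and lower in 2, against 9.72% and 13.8% of all genes (15 and 2 on the deposited scale). Id1, described above, had the largest rise in this list. Of 28 axon guidance genes 4 rose and 3 fell (14.3% and 10.7%), or 7 and 3 without E-OEX replicate 1 and 7 and none on the deposited scale. The ephrin receptor gene Epha4 rose from 37.5, 60 and 53.9 to 399, 359 and 386 (change 2.92, SE 0.29, adjusted p = 0.000137).

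Stress and immediate early genes, which respond quickly to growth factors or heat, were higher in E-OEX glands in 10 of 15 tested cases and lower in 2, against 9.72% and 13.8% of all genes, with a median change of 1.15. Without E-OEX replicate 1 the counts were 9 and 2, and with quantile normalization 9 and none. Jun, a subunit of the AP-1 factor, rose from 20303, 20506 and 25911 to 71427, 61752 and 70305 (change 1.62, SE 0.23, adjusted p = 0.00105). Egr1 rose from 6426, 12185 and 8271 to 27871, 23908 and 32463 (change 1.69, SE 0.28, adjusted p = 0.00239). Plk2, a kinase of the same early response, rose from 1396, 1440 and 1486 to 4113, 5599 and 4627 (change 1.72, SE 0.22, adjusted p = 0.000492). The cofactor chaperone Hsph1 rose from 12518, 13899 and 14208 to 34135, 36414 and 29222 (change 1.29, SE 0.22, adjusted p = 0.00264), and Hsp90aa1, a heat shock protein, by 1.26 (adjusted p = 0.00504).

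Reads of the paired heat shock genes Hspa1a and Hspa1b are not separable with certainty, since their sequences are nearly identical. Hspa1b had the highest mean rescaled reads of all genes tested, at 129353, 127235 and 116109 in wild-type and 241211, 328329 and 204785 in E-OEX glands. Its change of 1.03 (SE 0.27, adjusted p = 0.0217) missed the threshold without each wild-type library (0.0502, 0.0734 and 0.0862 without replicates 1, 2 and 3) and without E-OEX replicate 1 (0.0586). Gadd45b, a stress gene, rose from 556, 916 and 450 to 2436, 2799 and 1727 (change 1.89, adjusted p = 0.00233). Its relative Gadd45a went the other way, by -1.30 (adjusted p = 0.0118), a call that ended without wild-type replicates 1 and 3 (0.0678 and 0.0519).

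Interferon response genes were called higher in 9 of 40 cases and lower in 2, against 9.72% and 13.8% of all genes, with a median change of 0.67 against 0.05. Without E-OEX replicate 1 the counts fell to 4 higher and 2 lower, so that the share called higher was near that of all genes. On the deposited scale, where the median of all genes was 0.50, 25 were higher and 1 was lower. Isg15, a ubiquitin-like protein induced by interferon, rose from 73.8, 42.6 and 89.9 to 304, 232 and 243 rescaled reads (change 1.96, SE 0.34, adjusted p = 0.00286) and passed without each library in turn. Oas3, which senses double-stranded RNA, rose from 4.84, 3.27 and 20.1 to 181, 25.5 and 45.6 (change 2.91, SE 0.79, adjusted p = 0.0247), with E-OEX replicate 1 far above the rest; the change was 2.12 without that library, 3.61 without wild-type replicate 3 and 3.51 without E-OEX replicate 2. Ifit1 read 50.8, 46.9 and 81.4 against 214, 93.9 and 134 (change 1.25, adjusted p = 0.0411), and Ifit3 read 35.1, 13.1 and 37.0 against 91.8, 60.2 and 84.5 (change 1.55, adjusted p = 0.0321). These 3 calls ended without wild-type replicate 1 (0.0929, 0.119 and 0.0502 for Oas3, Ifit1 and Ifit3), wild-type replicate 2 (0.0862, 0.116 and 0.0752), E-OEX replicate 1 (0.0505, 0.0787 and 0.0577) and E-OEX replicate 3 (0.0557, 0.0898 and 0.0905). Ifitm6 fell from 54.4, 32.7 and 49.7 to 9.56, 7.14 and 4.41 (change -2.56, adjusted p = 0.00286).

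The core of the interferon response motif was searched as 2 copies of GAAA with any 2 bases between them, on both strands of the same promoter windows. Isg15, Ifit1 and Ifit3 are shown because their windows hold more than 1 match, and Ifit1 was picked for this after its values were seen. In Isg15 (chr4:156200819-156201068, - strand) 3 overlapping matches start 78, 72 and 66 bases before the gene's start. In Ifit1 (chr19:34640639-34640888, + strand) matches on the opposite strand lie at 104 and 85 bases, and in Ifit3 (chr19:34583279-34583528, + strand) at 156 and 122 bases. Capitals mark the matches.
Isg15: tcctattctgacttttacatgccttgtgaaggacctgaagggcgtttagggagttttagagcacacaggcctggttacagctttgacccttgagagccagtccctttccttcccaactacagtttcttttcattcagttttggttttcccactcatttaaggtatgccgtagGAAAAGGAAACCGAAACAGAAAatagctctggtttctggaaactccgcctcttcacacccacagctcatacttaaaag
Ifit1: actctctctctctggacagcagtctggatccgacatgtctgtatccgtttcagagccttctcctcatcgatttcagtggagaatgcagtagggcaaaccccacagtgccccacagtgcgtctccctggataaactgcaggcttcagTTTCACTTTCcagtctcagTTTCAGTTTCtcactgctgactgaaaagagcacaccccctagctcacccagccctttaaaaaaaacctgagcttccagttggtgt
Ifit3: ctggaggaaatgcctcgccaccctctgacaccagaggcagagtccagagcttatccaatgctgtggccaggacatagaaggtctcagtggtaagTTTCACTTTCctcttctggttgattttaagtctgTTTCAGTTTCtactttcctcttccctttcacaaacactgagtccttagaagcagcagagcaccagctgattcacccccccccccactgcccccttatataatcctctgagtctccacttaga
The motif was found in 3.04% of all promoters in the table, in 3.42% of those of tested genes, in 7.49% of those of genes called higher and in 2.29% of those of genes called lower. Within the interferon list it was found for 5 of 7 genes called higher and 9 of 24 others with an entry.

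**Figure D3:**
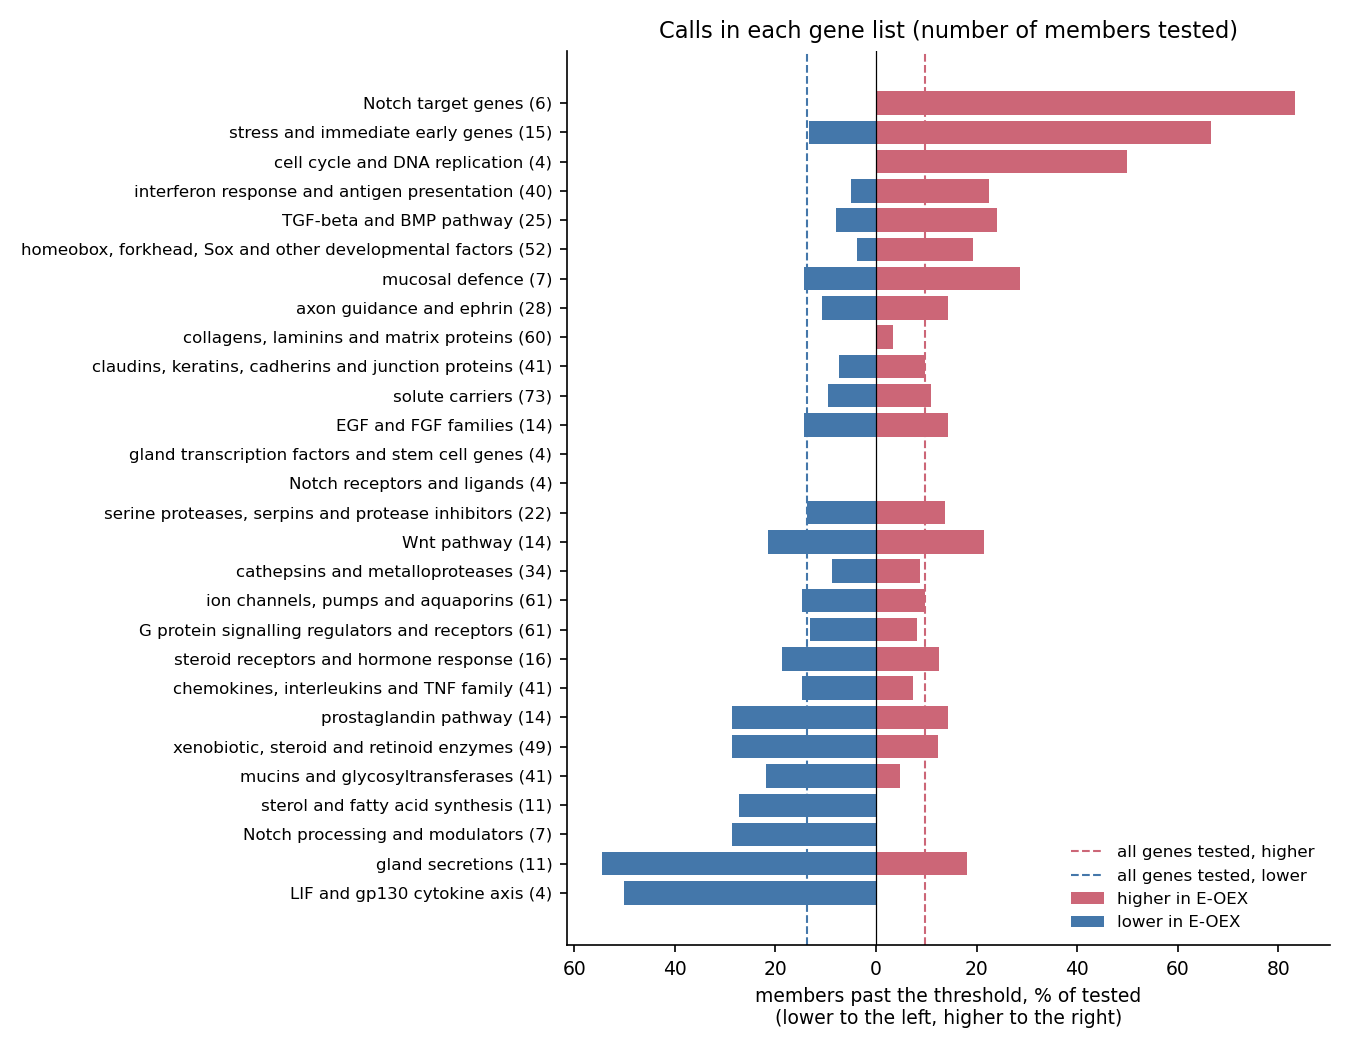
Percent of tested members called higher (red, right) or lower (blue, left) in E-OEX glands for each gene list, with the number tested in brackets; dashed lines mark 9.72% higher and 13.8% lower over all genes tested. Notch targets and stress genes reach furthest to the right, gland secretions and the LIF axis furthest to the left, and the carrier list lies near the dashed lines.

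Markers of the sampled cells and of their neighbours were summed in each library. The sum of 8 gland markers was 30781 to 43173 rescaled reads in wild-type and 7605 to 10404 in E-OEX libraries, and 5 of the 8 were called lower, with Foxa2, Sox9 and Wfdc3 not passing. In bulk libraries fewer gland cells and less RNA per cell cannot be told apart. The sum of 4 general epithelial markers overlapped, at 16291 to 17570 and 13682 to 22303. Its member Cdh1, which encodes E-cadherin, read 9141, 9727 and 10660 in wild-type and 7290, 6100 and 4330 in E-OEX glands (change -0.77, adjusted p = 0.051), and it passed without E-OEX replicate 1 (0.0204). The sum of 8 luminal markers was 1069 to 1844 in wild-type and 1752 to 8825 in E-OEX libraries, with 2 of 8 called higher. Ltf, the estrogen-induced lactoferrin of luminal cells, read 617, 479 and 523 against 6505, 971 and 820 and did not pass (adjusted p = 0.0946), but passed without E-OEX replicate 1 (0.0385). It gave most of the 8825 reads in that library. The other luminal markers were mixed. Krt13 was called higher, while Calb1 and Lpar3 overlapped between the groups, with changes of -0.38 and 0.15. The part of luminal cells in the results was not tested.

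Smooth muscle markers also moved with genotype. Of 11 tested smooth muscle markers 9 were called higher and none lower (81.8% higher, against 9.72% higher and 13.8% lower of all genes). The counts were the same without E-OEX replicate 1. Their sum was 5355 to 8627 rescaled reads in wild-type and 16136 to 25557 in E-OEX libraries. Acta2, smooth muscle actin, rose from 1213, 2047 and 2465 to 6877, 5886 and 4721 (change 1.65, SE 0.30, adjusted p = 0.0037). Myh11, smooth muscle myosin, rose from 935, 1582 and 1920 to 5182, 4438 and 3909 (change 1.66, SE 0.29, adjusted p = 0.00333). Cnn1, calponin, rose from 208, 344 and 291 to 1528, 1074 and 652 (change 1.89, adjusted p = 0.00381). In 1 fit over all 4 groups of GE and LE libraries Acta2 and Myh11 lost the call, while Cnn1 did not. No marker in the list was at 0 in all libraries of a group. The part of smooth muscle in the changes of other genes was not tested.

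Stromal and vascular markers did not pass in either direction. None of 11 stromal, 9 pericyte, 15 endothelial and 4 leukocyte markers was called, while 5 pericyte markers were called higher on the deposited scale and 2 with quantile normalization, and 1 pericyte and 1 leukocyte marker without E-OEX replicate 1. Stromal sums were large and spread widely in wild-type glands, from 46361 to 125095 rescaled reads, against 72323 to 87328 in E-OEX glands. Pericyte sums were 4960 to 6819 and 5434 to 8831, and leukocyte sums 307 to 406 and 336 to 388. Of 4 ciliated cell markers Dnah11 was called lower, from 102, 330 and 186 to 45.9, 17.3 and 44.1 (adjusted p = 0.00713), and Foxj1, the defining factor of ciliated cells, overlapped between groups (change -0.70, adjusted p = 0.374). Of 3 erythrocyte markers Alas2 was called lower (change -2.39, adjusted p = 0.00696, or -1.76 without E-OEX replicate 1). The erythrocyte sum was 329 to 364 in wild-type and 58.3 to 170 in E-OEX libraries. Alas2 gave most of the wild-type sums. The globin genes Hba-a1 and Hbb-bs overlapped between the groups and were not called, with changes of -0.73 and -0.87. Of 4 mesothelial markers only Krt19, described above, was called, and their sum was 1586 to 2489 and 6664 to 9615. The part of these cells in the results was not tested. The small nuclear RNA Rn7sk, the single RNA quality gene tested, changed by -0.14.

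**Figure D4:**
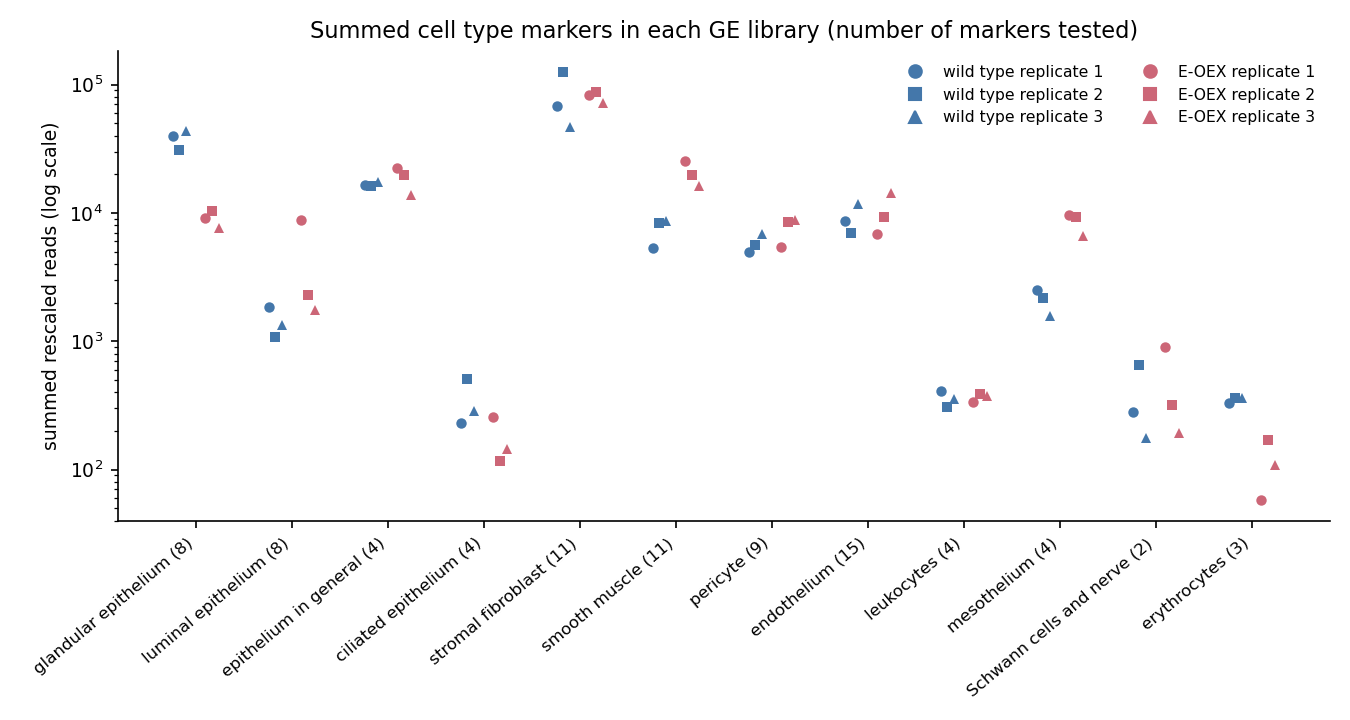
Summed rescaled reads (log scale) of cell type markers in each of the 3 wild-type (blue) and 3 E-OEX (red) gland libraries, with the number of markers tested in brackets. Gland markers lie lower and smooth muscle markers higher in all 3 E-OEX libraries, and E-OEX replicate 1 lies above all others for luminal markers. The mesothelial sum is almost wholly Krt19. Ltf gives most of the luminal sum of E-OEX replicate 1, and Alas2 most of the wild-type erythrocyte sums.

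The change in glands was set against the change in luminal epithelium of the same genotypes, in 3 wild-type and 3 E-OEX LE libraries that the gland comparison does not use. The difference of the changes (GE minus LE) passed limma's test for 10.9% of 2518 genes, 274 in all, with 115 above and 159 below 0, and 148 of them were also called in glands. Because a shared gene had to differ between the epithelia in both genotypes, genes whose difference was lost in E-OEX animals are not among them.

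Gland products were among the genes whose change was lower in glands than in lumen. Lif changed by -3.46 in glands and by 1.77 in LE, a difference of -5.23 (SE 0.99, adjusted p = 0.00466). In LE it read 23.4, 50.7 and 46.0 in wild-type and 440, 149 and 34.7 in E-OEX libraries, so the LE groups overlapped. Il6st changed by -3.14 and -0.05, a difference of -3.09 (SE 0.40, adjusted p = 0.000608). Foxa2, which did not pass in glands, changed by 3.12 in LE, a difference of -3.65 (SE 0.97, adjusted p = 0.0271). Wnt4 changed by -2.66 in glands and 2.99 in LE, and Tshr by -4.01 and 2.19, with differences of -5.65 (adjusted p = 0.00105) and -6.20 (adjusted p = 0.00195).

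Notch targets did not share 1 pattern across the epithelia. Hey2 changed by 3.31 in glands and 0.30 in LE, a difference of 3.01 (SE 0.75, adjusted p = 0.0202). Heyl changed by 1.04 in glands and 4.37 in LE, a difference of -3.33 (SE 0.73, adjusted p = 0.00979). For Hey1 the changes were 2.59 and 3.83, and their difference of -1.24 (SE 0.71) did not pass (adjusted p = 0.326). Early genes also differed: Egr1 changed by 1.69 in glands and -1.60 in LE (difference 3.29, adjusted p = 0.0137), Plk2 by 1.72 and -1.77 (difference 3.49, adjusted p = 0.000608) and Jun by 1.62 and -0.37 (difference 1.99, adjusted p = 0.00979). The smooth muscle gene Acta2 changed by 1.65 and -2.58 (difference 4.24, adjusted p = 0.0156).

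**Figure D5:**
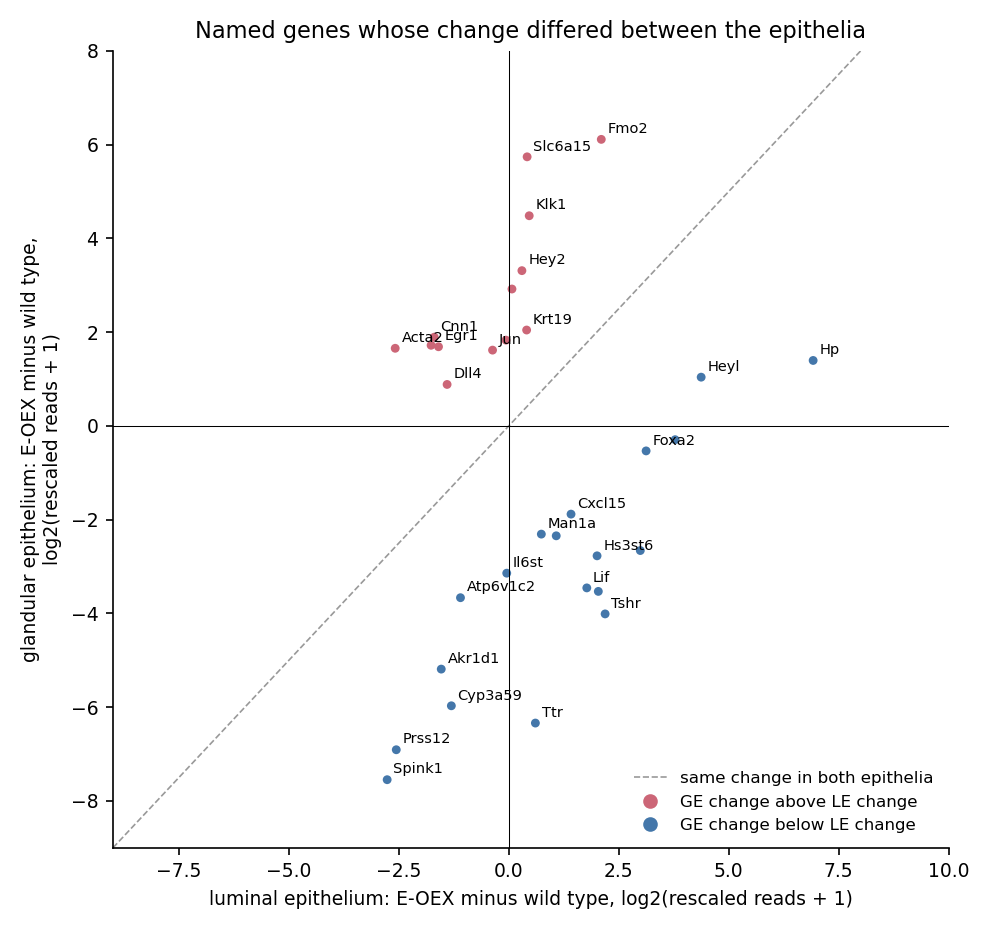
Change in E-OEX against wild type in glandular (vertical) and luminal epithelium (horizontal), both as differences of mean log2(rescaled reads + 1) over 3 libraries a group, for the named genes whose change differed between the epithelia. The dashed line marks equal changes; Lif and Tshr lie below it, with changes below 0 in glands and above 0 in lumen, and Hey2, Fmo2 and Slc6a15 lie above it. The luminal libraries of Lif overlap between genotypes. Labels of some crowded points are left out.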

How the data were processed

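RNA-seq libraries of mouse uterine epithelium were made from total RNA (Qiagen RNeasy, NEBNext Ultra), per the labels' protocols. The submitters' processing notes name the builds GRCm38 and mm10; the aligner, the counter and the scaling are not given in the sources used here. The authors' deposited value is a signal per gene: in each library all values are whole multiples of 1 step (100% within 0.01), so they were divided by it to recover reads. Symbols came from GENCODE M21, which matched 2770 of 2776 shared Ensembl identifiers; 157 unannotated transcripts have none.

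Recovered reads of the shared genes were rescaled with TMM (edgeR 4.0.16, R 4.3.3). Genes with a mean of at least 1 were tested with limma 3.58.1 (trend) on log2(reads + 1), with Benjamini-Hochberg adjustment over all genes. The difference of effects between GE and LE was an interaction over 12 libraries, rescaled within GE and within LE, with no pairing of GE and LE libraries. A group with 3 reads or fewer in every library is at the floor, and folds against it are lower bounds. The fit was tested on simulated data. Alternatives included DESeq2 1.42.0 and edgeR's quasi-likelihood test.

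The rule for named genes took up to 15 rises and 15 falls by size among called genes with separate groups, up to 6 called members of each list, the members of the Notch, gland and LIF lists and of the marker lists, the 10 genes with the highest mean and up to 8 interactions a direction; not every gene it allows is named, and the rest are in the counts. The comparison and the lists were chosen with earlier results of these data known. Some items among the named genes are not reported here.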

Additional observations from a re-analysis of the deposited data

Results flagged for a closer look

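The results here were picked out because the change in E-OEX animals differed between glandular and luminal epithelium by limma's interaction test, which 274 of 2518 genes passed. Values are the change in glands minus the change in lumen on the log2 scale, and a negative value is a change that was lower in glands. The change in LE by itself was not tested, and the causes of these differences were not tested.

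Among gland products and signals, the difference was -6.94 for Ttr, -5.23 for Lif, -4.78 for Spink1, -3.30 for Cxcl15, -4.07 for Wfdc3 and 1.89 for Wfdc2. Ttr had 3.06 rescaled reads or fewer in each LE library, so no direction can be read for it there. Spink1 had no read in any E-OEX LE library and 16.6 rescaled reads or fewer in the wild-type ones. Its change in LE rests on few reads. Wfdc3 did not pass in glands (change -0.30), and the LE libraries of Lif overlapped between genotypes. For receptors, ligands and the gland factor Foxa2 it was -6.20 for Tshr, -5.65 for Wnt4, -3.65 for Foxa2, -3.09 for Il6st, 2.29 for Dll4 and 2.85 for Epha4. The Notch targets Heyl and Hey2 lay on opposite sides, at -3.33 and 3.01.

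Among enzymes and carriers the values were -5.56 for Galnt17, -4.78 for Hs3st6, -4.66 for Cyp3a59, -4.35 for Prss12, -3.65 for Akr1d1, -3.05 for Man1a, -2.57 for Atp6v1c2, 4.01 for Fmo2, 4.02 for Klk1 and 5.32 for Slc6a15. Cyp3a59, Akr1d1, Atp6v1c2 and Klk1 had 19.5 rescaled reads or fewer in each LE library. Their changes in LE rest on few reads, and their differences follow mainly from the gland change. Hp, described under the other observations, had a difference of -5.52, with changes of 1.39 in glands and 6.92 in LE.

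The keratins Krt23 and Krt19 stood at -3.42 and 1.64, the early genes Jun, Egr1 and Plk2 at 1.99, 3.29 and 3.49, and the smooth muscle genes Cnn1 and Acta2 at 3.59 and 4.24. Cnn1 had 17.5 rescaled reads or fewer in each LE library.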

How the results depend on the processing

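E-OEX and wild-type glands differed in 670 genes. The count was 640 with library totals, 667 with median-of-ratios scaling, 627 with quantile normalization, 789 on the deposited scale, 650 with edgeR and 758 with DESeq2. It fell to 266 (110 higher, 156 lower) in 1 fit over all 4 groups, and lay between 362 (without wild-type replicate 1) and 728 (without E-OEX replicate 1) without each library; it was 430 without wild-type replicate 3. The difference between GE and LE was called for 274 genes (115 above 0, 159 below). It was 505 with DESeq2 (339 above, 166 below), and the split was 160 and 129 on the deposited scale, 74 and 223 with library totals and 136 and 129 with edgeR. Without each library it lay between 168 (without wild-type GE replicate 3) and 415 (without wild-type LE replicate 1). Same-numbered wild-type and E-OEX gland libraries had deviations correlated at 0.01, 0.07 and 0.19. Not every library correlated best with its own number, and the numbers were not taken as pairs. Pairing of GE and LE libraries within a genotype was not tested, and the fit for the difference leaves it out. With a replicate block, which joins libraries by number across genotypes, 718 genes were called in glands and 293 for the difference. The causes were not tested.

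Of 89 named genes called in glands 77 stayed called without each library in turn, and 31 lost the call in the fit over 4 groups. Changes near 0 turned sign. Dtx1 was at 0.37 on the deposited scale, 0.031 with edgeR, 0.042 with DESeq2 and from -0.53 to 0.51 without each library. On the deposited scale Dtx3 was at 0.15, Lfng at 0.14, Rn7sk at 0.32 and Wfdc3 at 0.17. With quantile normalization Dtx3 was at 0.022 and Wfdc3 at 0.091. The change of Hspa1b, 1.03 otherwise, was -0.00 with quantile normalization, which gives the gene with the most reads the same value in every library by construction. Without each library Egfl7 ranged from -0.0042 to 0.60, Lef1 from -0.14 to 0.48 and Rn7sk from -0.32 to 0.024. Gene list counts without E-OEX replicate 1 and under other scalings were chosen after seeing the data. Genes at 3 reads or fewer in a group have lower bounds only.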

Other observations

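Of 7 tested mucosal defence genes 2 rose and 1 fell in E-OEX glands (28.6% and 14.3%, against 9.72% and 13.8% of all genes), or 2 and 2 without E-OEX replicate 1. Hp, which encodes the haemoglobin-binding protein haptoglobin, read 2695, 1880 and 2831 rescaled reads in wild-type and 11099, 5753 and 4086 in E-OEX glands (change 1.39, SE 0.36, adjusted p = 0.0201 by limma). Its groups were separate, with E-OEX replicate 1 highest, and the call ended without wild-type replicates 1 and 2 (0.0502 and 0.0764). Cfb, complement factor B, was low in all libraries, at 4.84, 3.27 and 0 against 43.0, 12.2 and 11.8 (adjusted p = 0.0308), and the call ended without each library other than wild-type replicate 1 (from 0.0508 to 0.0834). Its change of 2.74 became 3.33 without wild-type replicate 1, 1.97 without wild-type replicate 3 and 2.15 without E-OEX replicate 1. Agr2, a protein of the secretory pathway needed for mucin folding, fell from 177, 111 and 180 to 48.8, 32.6 and 17.6 (change -2.28, SE 0.42, adjusted p = 0.00388).

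Of 4 tested cell cycle genes 2 rose and none fell, and both, Cdkn1a and Myc, are also on the Notch target list. Neither of the 2 tested Schwann cell and nerve markers was called, and 1 was called higher on the deposited scale.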
